A study of Mus musculus with 6 samples.

Results

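The genes of matrix metalloproteinases (Mmp), of the Adam and Adamts proteases and of their tissue inhibitors (Timp) were compared between normal livers and liver tumors of mice. Every non-control probe of the array whose gene name, or whose current RefSeq symbol, began with Mmp, Adam, Adamts or Timp followed by a digit was taken. The rule found 118 of 55681 probes, which stood for 80 of 34741 named genes, namely 23 Mmp, 34 Adam, 19 Adamts and 4 Timp genes. The rule itself reads names only, while the families were picked with earlier results of these data known. The samples were 3 normal livers and 3 liver tumors of male C3H/HeN mice, a strain prone to spontaneous liver tumors. All mice were 74 to 75 weeks old, came from the control arm of a multigeneration experiment and received standard diet and tap water, so both groups share age, sex, strain and diet. The tumors carried a Ha-ras mutation according to the study's methods. The tissue was whole liver or whole tumor, so that fewer cells of a type and less RNA per cell cannot be told apart. Total RNA of each sample was labelled with Cy3 and read on a separate 1-color SurePrint G3 Mouse GE array. The labels do not say whether the samples of a group came from separate mice, and p-values measure only the spread between these samples.

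Metalloproteinases cut proteins with a zinc ion in their active site. Mmp enzymes mainly degrade collagens and other matrix proteins, Adam proteases release growth factors, cytokines and receptors from the cell surface, and Adamts proteases are secreted enzymes that trim procollagens, proteoglycans and von Willebrand factor. The Timp proteins bind the active site and block it. In the liver, these genes are best known for the turnover of scar matrix by stellate cells and macrophages and for the shedding of ligands of the EGF receptor by Adam17.

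A probe is 60 bases long, and 33 of the 80 genes had several probes. Where 2 probes of a gene gave different answers, the first 30 bases of the probes concerned are shown with the positions of the whole probes on mm9, the assembly of the array design. The probe of Mmp14 was its only one. The probes of Adam11 lie 3159 bases apart and those of Adamts14 8290 bases apart on the genome. Which exon or untranslated region each probe reads was not analysed here, and why such probes differed was not tested.
Mmp14, probe A_52_P304128, chr14:55058775-55058834: ggacagcgagtaccctaaaaacatcaaagt
Adam11, probe A_52_P205255, chr11:102641316-102641375: ttggtgaagaacacaagacttcctgtggcc
Adam11, probe A_55_P1962876, chr11:102638157-102638216: tgcagtattcacaacccactgcccacgtcc
Adamts14, probe A_55_P1978316, chr10:60659860-60659919: tcaagtcatgtgtggaccggcctggagatg
Adamts14, probe A_52_P156763, chr10:60668150-60668209: gcccctcatcgggagtaataatgtgctcct

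An expression value is the processed signal of a probe divided by the 75th percentile of its array. A probe was tested when all 3 arrays of a group, or of both groups, showed it well above background, and a call means an adjusted p under 0.05 in limma over all 24901 tested probes. A gene was represented by its brightest probe. Of the 118 probes, 35 were tested, for 29 of the 80 genes. For 38 genes 0 of the 6 arrays showed the representative probe well above background. For these genes, little RNA in whole liver and a probe that reads poorly cannot be told apart.

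Of the 29 tested genes, 13 passed the test, which is 44.8% against 34.1% of all genes tested. Of these, 6 were higher and 7 lower in the tumors, or 20.7% and 24.1%, against 13.1% and 21% of all genes tested. A change of 2-fold or more was found for 8 of them, 4 in each direction, against 14.6% of all genes tested, 7.78% higher and 6.83% lower. By probe, 15 of 35 were called (42.9% against 33.1% of all tested probes), 6 higher and 9 lower, against 12.5% and 20.6% of all tested probes, and 9 by 2-fold or more, against 14%. The Adamts family held 7 of the 13 called genes (of 9 tested, 77.8%) and 6 of the 8 with a 2-fold change. The Mmp, Adam and Timp families held 2 called genes each, of 6 (33.3%), 11 (18.2%) and 3 (66.7%) tested. The share called over all genes tested was 34.1%. The groups did not overlap for 17 of the 29 genes (58.6%), and the same was true of 51.8% of all genes tested. The median log2 difference between tumors and normal livers was 0.15 over the 29 genes, also with the 2 genes that were dim in all normal livers at their lower bounds, and -0.13 over all tested genes. With scaling to the spike-in controls, the median of all tested probes moved from -0.13 to 0.08, the share of higher calls among all called probes from 37.8% to 64.4%, and the family probes were split into 6 higher and 6 lower. The median over the 35 family probes was 0.14, and it was 0.35 with spike-in scaling and -0.02 with normexp background correction.

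**Figure D1:**
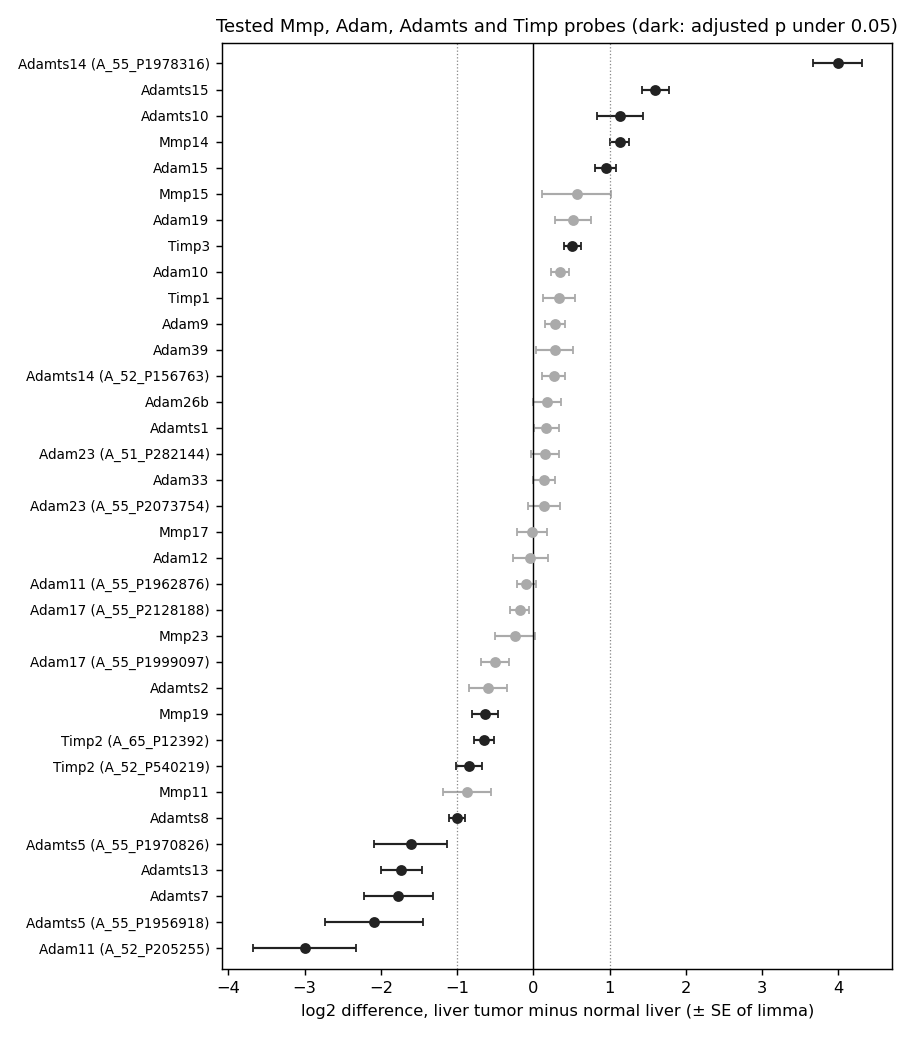
Log2 difference between liver tumors and normal livers for each of the 35 tested probes of the families, on the horizontal axis, with the standard error of limma as bars. Dark points are the 15 probes with an adjusted p under 0.05, dotted lines mark 2-fold changes, and the ends are held by Adamts14 at 3.99 and Adam11 at -3.00, each with a second probe near 0.

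Timp2 and Timp3 moved in opposite directions. Timp2, which inhibits Mmp enzymes and also helps Mmp14 to activate Mmp2, fell on both of its probes. Its brighter probe read 13.2, 13.6 and 15.3 in the normal livers and 7.33, 9.70 and 6.71 in the tumors. All tumors lay below all normal livers, and the log2 difference was -0.84 ± 0.17 (SE, limma's adjusted p = 0.0114). The second probe gave -0.65 ± 0.13 (adjusted p = 0.0113). Timp3, the inhibitor that is bound to the matrix and acts on Adam17 and Adamts proteases, rose. It read 6.02, 6.09 and 6.72 in the normal livers and 8.65, 8.73 and 9.38 in the tumors, again without overlap, with a log2 difference of 0.51 ± 0.11 (adjusted p = 0.0144). Timp1, the inhibitor that is induced in injured liver, did not pass the test, with normal livers at 0.181 ± 0.01 (SD, n = 3) and tumors at 0.235 ± 0.0624 (SD, n = 3) (limma's adjusted p = 0.265). For Timp4, 0 of 6 arrays were well above background. The change of Timp2 depended on the scaling, since with spike-in controls the adjusted p was 0.101 and 0.136 for its probes, at log2 differences of -0.64 and -0.44. Without normal liver 2 Timp3 was no longer called (0.49, adjusted p = 0.0574), nor was it without the filter on dim probes (adjusted p = 0.0761).

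**Figure D2:**
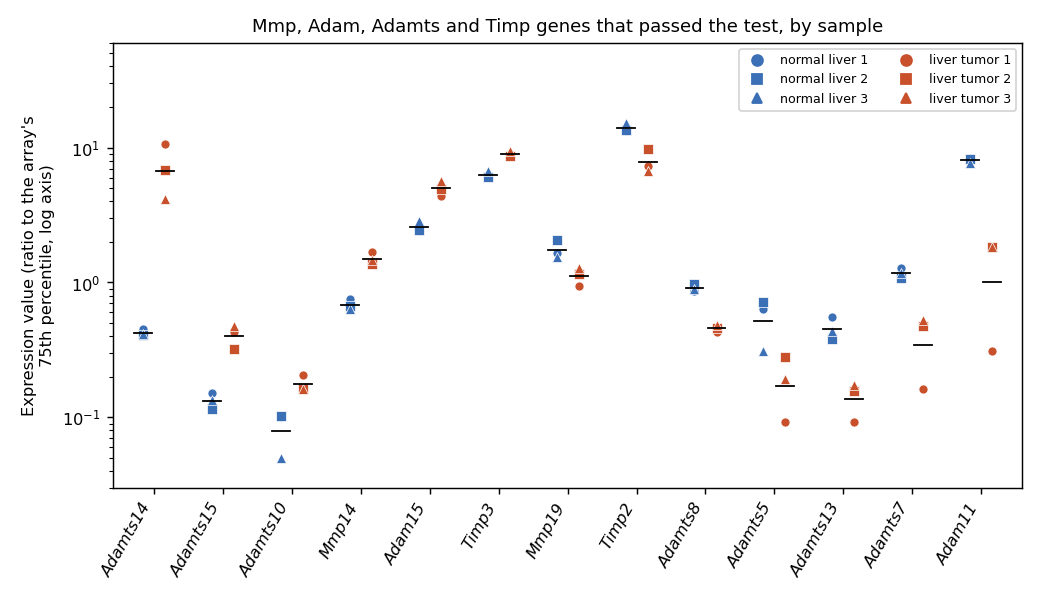
Expression values on a log axis for the 13 called genes, each at its brightest probe, in the 3 normal livers (blue) and 3 liver tumors (red). Symbols mark the sample number, which was not taken to pair samples, and short bars are means on the log scale. For every gene shown the groups do not overlap, and the normal livers of Adamts15 and Adamts10 were not well above background. Tumor 1 lies lowest for every gene called lower except Timp2. For Adamts5 and Adamts13 its readings were not well above background.

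Among the Mmp genes, Mmp14 rose and Mmp19 fell, and the other 4 tested genes did not pass the test. Mmp14 encodes the membrane-type protease MT1-MMP, which cuts fibrillar collagen at the cell surface and activates pro-Mmp2. Its probe read 0.749, 0.672 and 0.636 in the normal livers and 1.67, 1.36 and 1.47 in the tumors. The lowest tumor was well above the highest normal liver. The mean rose from 0.686 ± 0.0580 (SD, n = 3) to 1.5 ± 0.16 (SD, n = 3), a 2.19-fold change with a log2 difference of 1.13 ± 0.13 (SE, limma's adjusted p = 0.00211). By an exact permutation test over the samples, two-sided, p was 0.1, below which groups of 3 cannot go. The study chose this gene partly by its expression on the same arrays, so that its direction here is no independent evidence. Mmp14 kept its call with any 1 array left out, with log2 differences of 1.05 to 1.2.

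Of the other 5 membrane-type genes, Mmp15 and Mmp17 were tested, and their difference from Mmp14 was not. Mmp15, or MT2-MMP, read 1.47, 1.5 and 1.59 in the normal livers and 1.83, 1.32 and 4.75 in the tumors. Tumor 3 alone stood apart, and the log2 difference of 0.57 ± 0.45 did not pass the test (limma's adjusted p = 0.366). Mmp17, which is anchored in the membrane by a lipid, read 0.186 to 0.298 over all samples (log2 difference -0.02 ± 0.20). Mmp19, a secreted protease of basement membrane proteins, fell from 1.66, 2.06 and 1.54 to 0.938, 1.16 and 1.29. Its groups did not overlap, and the log2 difference was -0.63 ± 0.17 (adjusted p = 0.0332). The call of Mmp19 was lost without normal liver 1, normal liver 2, tumor 1 or tumor 2, where the adjusted p was between 0.0715 and 0.1, and with spike-in scaling (-0.43, adjusted p = 0.239). Mmp11, or stromelysin 3, had a log2 difference of -0.87 ± 0.32 and Mmp23 one of -0.24 ± 0.26, neither past the test.

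The secreted enzymes by which this family is best known were at or near the background of the array. None of the 4 collagenases, the 2 gelatinases or Mmp7 and Mmp12 could be tested. The gelatinases Mmp2 and Mmp9, which degrade denatured and basement membrane collagen, rose well above background on 0 of 6 arrays, as did the collagenase Mmp13, the matrilysin Mmp7 and the macrophage elastase Mmp12. As signals of their probes, these readings carry only an upper bound and no order. Of the collagenases, Mmp1b alone was well above background on an array, that of tumor 1. Of the 10 genes that follow one another in the Mmp cluster on chromosome 9, from Mmp13 to Mmp7, none was tested.

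Among the Adam genes, the proteases with roles in body cells were mostly measurable and the sperm genes were not. Of the 9 protease genes of body cells, 7 were tested and 1 was called, Adam15, which encodes a membrane protease with an integrin-binding disintegrin domain. Adam15 read 2.39, 2.47 and 2.86 in the normal livers and 4.39, 4.95 and 5.68 in the tumors. The groups were clearly apart, with a log2 difference of 0.95 ± 0.14 (SE, limma's adjusted p = 0.00472) that held with any 1 array left out. Adam10, which cuts Notch and E-cadherin, read 4.29, 4.32 and 4.39 against 6.03, 4.87 and 5.75. Its groups did not overlap either, but its log2 difference of 0.35 ± 0.12 missed the threshold (adjusted p = 0.0646). Adam17, the sheddase of TNF and of several EGF receptor ligands, had differences of -0.50 ± 0.18 and -0.18 ± 0.12 on its 2 probes, neither of them called (adjusted p = 0.0761 and 0.295). Adam9, the gene of another membrane sheddase, had a mean of 12.9 ± 1.3 (SD, n = 3) over normal livers and of 15.6 ± 1.49 (SD, n = 3) over tumors, and its groups overlapped (limma's adjusted p = 0.146). Adam12, Adam19 and Adam33 did not pass the test, and Adam8 was above background in 2 of 3 tumors and in no normal liver. Of the 22 Adam genes known mainly from germ cells, 2 were tested (Adam26b and Adam39) and 0 called, 0 also at an unadjusted p under 0.05.

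Adam11, whose product belongs to the Adam proteins without protease activity and is known from nerve cells, gave different pictures on its 2 probes. The first probe shown above, A_52_P205255, read 8.34, 8.29 and 7.69 in the normal livers and 0.308, 1.83 and 1.83 in the tumors. Each tumor was far below each normal liver, and tumor 1 was far below the other tumors. The log2 difference was -3.00 ± 0.68 (SE, limma's adjusted p = 0.0180), which is 8.02-fold lower. The second probe, A_55_P1962876, read 2.87, 2.52 and 2.63 in the normal livers and 2.75, 2.42 and 2.37 in the tumors. Here the groups overlapped, with a log2 difference of -0.09 ± 0.12 (adjusted p = 0.599). Both probes were well above background on all 6 arrays. The exact permutation test, two-sided, gave p = 0.1 for the first probe, again the lowest possible, and p = 0.4 for the second. The study chose Adam11, like Mmp14, partly by its expression on the same arrays. Leaving out normal liver 1, 2 or 3 ended the call of the first probe (adjusted p = 0.0547, 0.0558 and 0.0508) at log2 differences of -2.98 to -3.04, as did testing without the filter on dim probes (adjusted p = 0.0531), and without tumor 1 the difference was smaller, at -2.15. Adam23, of the same group, did not pass the test on either tested probe, and Adam22 was not tested.

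**Figure D3:**
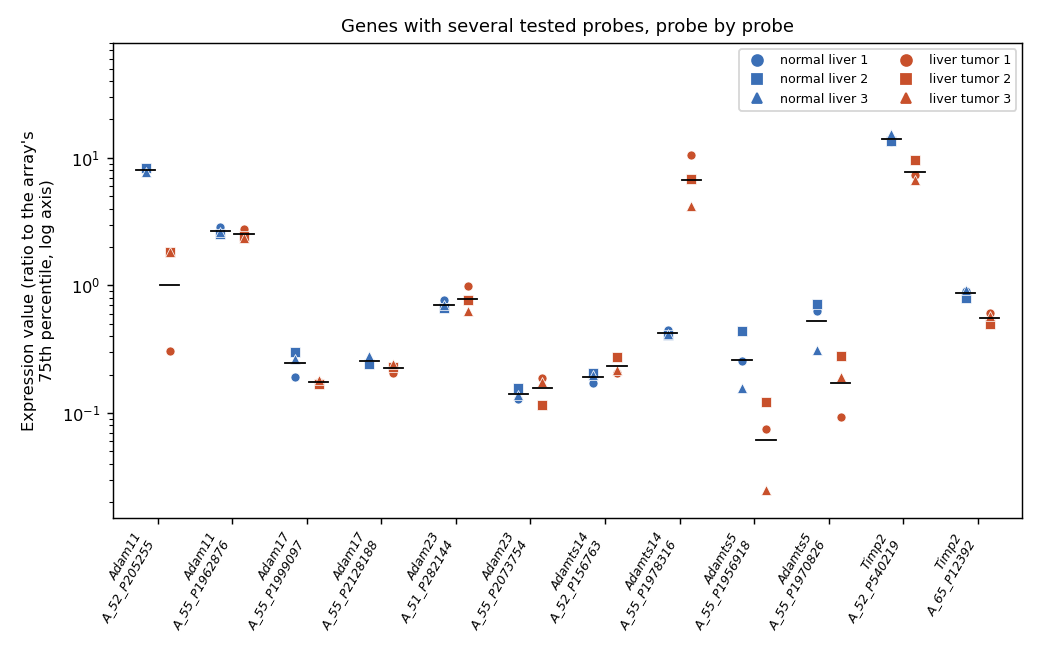
Expression values on a log axis for each tested probe of the 6 genes with several tested probes, in the 3 normal livers (blue) and 3 liver tumors (red), with symbols and bars as in the plot of called genes. The probes of Adam11 and of Adamts14 differ in whether the groups separate widely, and those of Adamts5 and Timp2 fall together.

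Of the 9 tested Adamts genes 7 were called (77.8%, against 34.1% of all genes tested), 3 higher and 4 lower, and 6 of them by 2-fold or more, against 14.6%. These 6 include Adamts10, whose lower bound was 1.55-fold. The difference between the families was not tested. The largest rise was that of Adamts14, which with Adamts2 and Adamts3 removes the amino-terminal propeptide of fibrillar procollagens. Its brighter probe, A_55_P1978316, read 0.450, 0.405 and 0.416 in the normal livers and 10.6, 6.81 and 4.19 in the tumors. The tumors differed among themselves, but the lowest was far above every normal liver. The log2 difference was 3.99 ± 0.32 (SE, limma's adjusted p = 0.000580), a 15.8-fold change. The second probe, A_52_P156763, was close to the background, with means of 0.193 ± 0.0181 (SD, n = 3) for normal livers and 0.234 ± 0.0376 (SD, n = 3) for tumors, and was not called (limma's adjusted p = 0.211). Adamts2, the main procollagen N-proteinase, read 2.40, 2.13 and 1.91 against 0.971, 1.82 and 1.59 and did not pass the test (log2 difference -0.60 ± 0.25, adjusted p = 0.107). Adamts3 was not tested.

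The proteoglycanases, which cut aggrecan and versican, were split. Adamts15 was dim, that is not well above background, in all normal livers, with readings of 0.115 to 0.151, and read 0.426, 0.323 and 0.472 in the tumors. The tumors were at least 2.95-fold higher, by a bound in which each normal liver was given its probe's reading or, if that was higher, the weakest signal of the array still well above background (limma's adjusted p = 0.00208). With normexp background correction, where an offset is added to all signals, its log2 difference was 0.37 and its adjusted p 0.0565. Adamts8 fell from 0.872, 0.980 and 0.890 to 0.430, 0.463 and 0.480. The samples within each group lay close together, and the log2 difference of -1.0 ± 0.11 (adjusted p = 0.00182) was just short of 2-fold. Adamts5, a strong aggrecanase, fell on both probes. The brighter one read 0.635, 0.714 and 0.313 in the normal livers and 0.0931, 0.280 and 0.191 in the tumors, the latter well above background in 2 of 3 tumors. The dimmer one was well above background in 1 of 3 tumors, so that its fall was measured mostly against background readings. The spread within the groups was wide, with log2 differences of -1.61 ± 0.48 (adjusted p = 0.0427) and -2.09 ± 0.64 (adjusted p = 0.0471). Adamts1, the gene of an inflammation-induced versicanase, read 2.49 ± 0.237 (SD, n = 3) and 2.81 ± 0.498 (SD, n = 3), with overlapping groups (limma's adjusted p = 0.455). Adamts4 was well above background in 2 of 3 tumors on 1 of its 2 probes, and in no normal liver on either, and was not tested.

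Of the remaining Adamts genes, Adamts13 and Adamts7 fell and Adamts10 rose. Adamts13 and Adamts10, like Adamts8, each had a second probe that was well above background on no array and was not tested. Adamts13 cuts von Willebrand factor and is made in the liver mainly by stellate cells. It read 0.553, 0.378 and 0.434 in the normal livers and 0.0923, 0.156 and 0.174 in the tumors, where 2 of 3 arrays were well above background. The groups were apart, and the fall was 3.31-fold (log2 difference -1.73 ± 0.27, limma's adjusted p = 0.00567). Adamts7, a protease of cartilage oligomeric matrix protein, read 1.29, 1.08 and 1.17 in the normal livers and 0.161, 0.479 and 0.531 in the tumors. Its 3.42-fold fall (log2 difference -1.77 ± 0.45, adjusted p = 0.0257) was deepest in tumor 1. Adamts10, which binds fibrillin, was dim in all normal livers and read 0.206, 0.164 and 0.161 in the tumors, at least 1.55-fold higher by the same bound (adjusted p = 0.0288). The calls of Adamts14, Adamts15, Adamts13 and Adamts8 held with any 1 array left out. That of Adamts14 was lost in the unpaired form of the methods' t-test on linear values (adjusted p = 0.0736). The form paired by replicate number called 0 of all tested probes after adjustment. That of Adamts7 was lost without any 1 normal liver (adjusted p = 0.0652 to 0.0751) and without the filter (0.072), that of Adamts10 without any 1 tumor (0.0563 to 0.0742) and, at a log2 difference of 0.12, with normexp, and that of the brighter Adamts5 probe without normal liver 1, normal liver 2, tumor 1 or tumor 3 (0.0782 to 0.124). The dimmer Adamts5 probe lost its call without each array but tumor 2 (0.0563 to 0.133).

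In 2 places of the genome, tested Adamts genes lie side by side. In the RefSeq annotation of GRCm38.p6, Adamts15 and Adamts8 are neighbours on chromosome 9 with no gene between them, and the first was higher and the second lower in the tumors. Adamts1 and Adamts5 are found on chromosome 16 with 1 gene of unnamed function between them, 4930556C24Rik, and Adamts5 fell while Adamts1 did not pass the test.

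Promoter sequences of the RefSeq annotation, of 250 bases before to 50 bases after the start of a transcript, were found for 55 transcripts of 50 of the 80 genes. CpG sites, the places where DNA can be methylated, were counted because the study compared promoter methylation in these tissues, although the regions it lists for Mmp14 and Adam11 lie further downstream, outside this window. The median number of CpG sites in these 300 bases was 6 over the 55 promoters and 7 over all 32851 promoters. It was 2 for the genes that were not tested, 19 for those tested but not called, 24.5 for the 4 promoters of genes called higher and 13.5 for the 2 of genes called lower. The letters TGANTCA, a form of the AP-1 motif with a free base in the middle, which reads alike on both strands, were present in 13 of the 55 promoters (23.6%), against 7.81% of all promoters. Of these, 12 belonged to genes that were not tested, among them Mmp13, Mmp3, Mmp10, Mmp1a and Mmp7, 1 to a gene that was tested but not called, and none to the 6 called genes that had a promoter here. The letters GGGCGG, the core of the GC box, on either strand, were found in the 6 promoters of called genes, in 64.3% of those of genes tested but not called, in 22.9% of those not tested, in 41.8% of the promoters of the families and in 35.7% of all promoters. A match of letters is a description and not a bound site.

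The 250 bases before the start are shown for the called genes Mmp14, Adamts14 and Adamts13, which span the range from many CpG sites to few (positions on GRCm38.p6, sequence 5′ to 3′ on the strand of the gene, CpG sites in capitals). They hold 10, 35 and 1 CpG sites. Promoters of Adam11, Adamts15, Adamts7 and Adamts5 are not shown here.
Mmp14, chr14:54431348-54431597, + strand: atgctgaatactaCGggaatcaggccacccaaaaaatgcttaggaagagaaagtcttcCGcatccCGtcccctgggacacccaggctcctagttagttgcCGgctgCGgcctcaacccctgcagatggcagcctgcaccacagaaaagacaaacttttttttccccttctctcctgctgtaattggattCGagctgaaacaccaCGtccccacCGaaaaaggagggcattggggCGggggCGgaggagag
Adamts14, chr10:61273420-61273669, − strand: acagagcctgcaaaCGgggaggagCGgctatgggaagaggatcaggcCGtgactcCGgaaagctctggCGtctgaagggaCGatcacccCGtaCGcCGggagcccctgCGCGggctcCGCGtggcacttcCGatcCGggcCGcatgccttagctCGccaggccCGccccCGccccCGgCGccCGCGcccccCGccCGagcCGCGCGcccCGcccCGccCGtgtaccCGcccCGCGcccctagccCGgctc
Adamts13, chr2:26973166-26973415, + strand: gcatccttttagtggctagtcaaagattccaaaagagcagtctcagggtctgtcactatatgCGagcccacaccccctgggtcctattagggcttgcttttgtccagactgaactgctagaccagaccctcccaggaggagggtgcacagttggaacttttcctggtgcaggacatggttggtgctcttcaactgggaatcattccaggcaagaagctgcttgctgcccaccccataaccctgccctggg

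Partners of the proteases were described by a list of 41 genes of their activation, inhibition, trafficking and substrates. Of these, 29 were tested and 17 called (58.6%, against 34.1% of all genes tested), 10 higher and 7 lower in the tumors. A change of 2-fold or more was found for 10 genes, 8 of them higher, against 14.6% of all genes tested. These 8 include Plat, which was dim in all normal livers and had a lower bound of 1.51-fold. The median log2 difference of the 29 genes was 0.15, also with genes dim in all normal livers at their bounds. All 4 tested genes of the plasminogen system, whose product plasmin activates several pro-Mmp enzymes, were called, 3 higher and 1 lower. The 3 were an activator, a receptor and an inhibitor, since Serpinf2, the gene of the plasmin inhibitor alpha2-antiplasmin, rose by 0.45 ± 0.13 on the log2 scale (limma's adjusted p = 0.0346). Plaur, the gene of the urokinase receptor, rose from 0.194, 0.187 and 0.107 to 0.890, 0.520 and 0.410 (log2 difference 1.87 ± 0.35, adjusted p = 0.00985). Plat, the gene of tissue plasminogen activator, was dim in all normal livers and at least 1.51-fold higher (adjusted p = 6.54e-04), with a log2 difference of 0.30 and an adjusted p of 0.0682 under normexp. Plau, the gene of urokinase itself, was dim on all 6 arrays, and Plg, the gene of plasminogen, fell from 443 ± 18 (SD, n = 3) to 352 ± 13 (SD, n = 3), with limma's adjusted p = 0.0468.

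Partners that carry Adam17 and Adam10 through the cell included 4 genes called higher and 0 called lower, of 8 tested and 9 listed. The share called higher was 50% of those tested, while over all genes tested 13.1% were called higher and 21% lower. Tspan14, Tspan15, Tspan17 and Tspan33 did not pass the test, at log2 differences of 0.15, 1.04, -0.06 and -0.13. Neither Adam17 nor Adam10 passed it. Rhbdf1, the gene of iRhom1, read 1.93, 1.40 and 1.78 in the normal livers and 14.7, 9.34 and 8.09 in the tumors. All tumors were far above all normal livers (log2 difference 2.62 ± 0.25, limma's adjusted p = 0.0011). Frmd8, whose product stabilises iRhom proteins, rose from 7.05, 6.80 and 6.69 to 19.1, 16.0 and 21.6 (1.45 ± 0.14, adjusted p = 0.00109), and Rhbdf2, the gene of iRhom2, rose by 1.13 ± 0.16 (adjusted p = 0.00394). Tspan5, a tetraspanin partner of Adam10, was dim in all normal livers and at least 2.77-fold higher (adjusted p = 0.0148), at a log2 difference of 0.39 and an adjusted p of 0.128 with normexp.

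Other astacin and Adamts-like genes were split. Mep1b, the gene of the meprin beta subunit, a metalloproteinase of the astacin family, read 0.208, 0.165 and 0.421 in the normal livers and 2.54, 3.87 and 4.26 in the tumors (log2 difference 3.83 ± 0.38, limma's adjusted p = 0.00123). Adamtsl5, a matrix protein that resembles Adamts enzymes without their protease domain, was dim in all normal livers and at least 7.52-fold higher in the tumors (adjusted p = 6.02e-04). The 3 genes called lower were Pcolce2 (-1.17 ± 0.14, adjusted p = 0.00245) and Bmp1 (-0.49 ± 0.11, adjusted p = 0.0158), whose products take part in procollagen processing, and Adamtsl2 (-0.79 ± 0.18, adjusted p = 0.0185). Of the substrates of Adamts proteases, Acan, the gene of aggrecan, fell by 1.44 on the log2 scale (adjusted p = 0.0422), while Vcan, the gene of versican, and Vwf did not pass the test. The call of Acan was lost without each array but tumor 2 (adjusted p = 0.0527 to 0.118, log2 differences of -1.04 to -1.68).

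**Figure D4:**
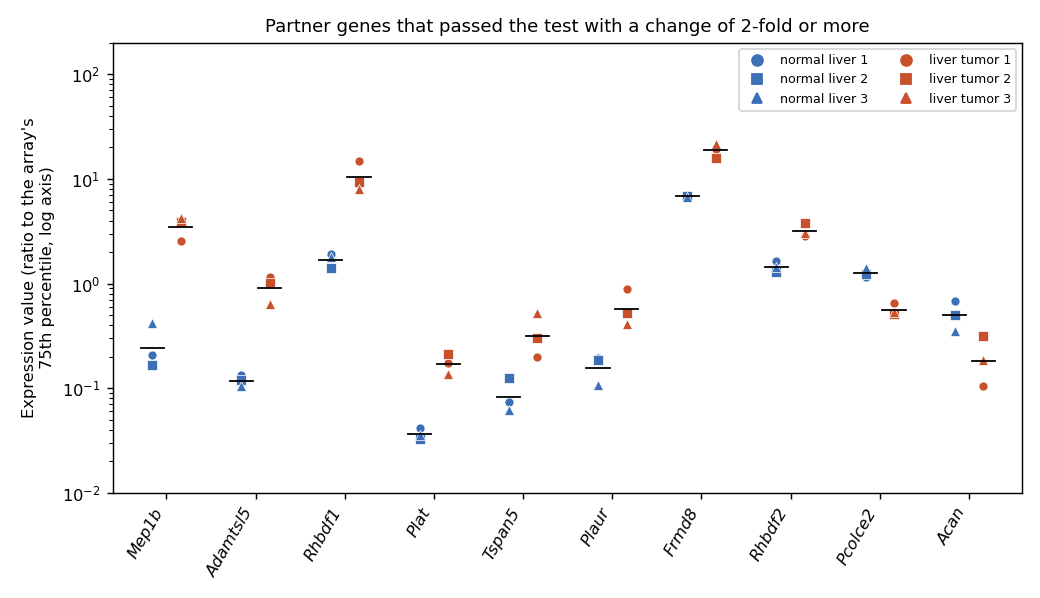
Expression values on a log axis for the 10 partner genes that passed the test with a change of 2-fold or more, in the 3 normal livers (blue) and 3 liver tumors (red). Adamtsl5, Plat and Tspan5 were dim in all normal livers, so that their blue points are background readings and not measured levels. The drawn gap of Plat is wider than its lower bound of 1.51-fold. Acan and Pcolce2 are the 2 genes that fell.

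The tumors were liver tissue by their markers, and some markers of other cell types differed between the groups too. All 6 hepatocyte markers were well above background on all arrays, and their summed expression value was 5440 to 6250 in the normal livers and 5770 to 5980 in the tumors. Of these 6, Tat fell by 1.43 on the log2 scale (limma's adjusted p = 0.00351), Apoa1 rose by 0.90 (adjusted p = 0.00565) and 4 did not pass the test. Of the 10 markers of stellate cells and fibroblasts, 2 were called higher and 5 lower (70% called, against 34.1% of all genes tested). Their sum was 89.0 to 106 in the normal livers and 30.2 to 50.5 in the tumors, and Dcn, the gene of decorin, carried this difference, since the other 9 summed to 9.62 to 13.9 and to 12.4 to 17.6. Lower were Lrat (-1.83), Dcn (-1.64), Lum (-1.41), Des (-0.85) and Pdgfrb (-0.76), higher were Col1a1 (1.58) and Reln (0.72), and Col1a2 (0.53), Col3a1 (0.29) and Acta2 (1.15) did not pass the test. Of the 7 macrophage markers 5 were called (71.4%), all lower, and their sum was 73.2 to 117 against 37.1 to 58.6. The neutrophil and cholangiocyte markers had 0 calls by limma among 4 tested genes each (1, Ly6g, and 0 at an unadjusted p under 0.05), 1 of 3 tested lymphocyte markers was called higher (Cd4), and 2 of 6 endothelial markers were called, 1 in each direction. Without Cd4, the other 6 lymphocyte markers summed to 6.53 to 8.29 in the normal livers and to 6.6 to 8.49 in the tumors. The part of these cell types in the changes of the protease genes was not tested.

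Tumor 1 was often the most extreme of the tumors, among these genes as among all called genes. It was the lowest tumor for 6 of the 7 genes called lower (85.7%), against 66.7% of all genes called lower. It was the highest for 3 of the 6 called higher (50%), against 61.3% of all genes called higher. Tumor 3 was the highest for the other 3, against 19.2% of all genes called higher. All normal livers had been hybridised on slide 1 and all tumors on slide 2, and the effects of slide and tissue cannot be told apart. Per array, 42.7% to 46.7% of spots rose well above background and 0 were saturated. The median local background was 42, 43 and 45 in normal livers 1 to 3 and 23, 22.5 and 22 in tumors 1 to 3. How far this difference bears on the genes that were dim in all normal livers was not tested. The 75th percentile of the signal was 123.857 to 176.828 in the normal livers and 171.02 to 182.627 in the tumors. Precision is limited by the number of arrays.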

How the data were processed

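The authors deposited the scanner output of each array, made with Feature Extraction (10.7.3.1 by the file headers, 12.0.3.1 in the submitters' processing notes), whose processed signal is the intensity of a spot after background subtraction and spatial detrending. They also deposited a table of the ratio of this intensity to the 75th percentile of all spots of the array, controls included, which served as an alternative. At spots with high ratios the table matched the intensities within 0.112%, and the match at low ratios was not measured. With the deposited ratios the dimmer Adamts5 probe was no longer called (log2 difference -2.19, limma's adjusted p = 0.054). Column medians of that table were 0.08 to 0.11.

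The deposited processed signals were divided by the 75th percentile of their array and converted to log2. Control spots and 804 outlier spots were left out, and spots of a probe were averaged. Groups were compared with limma 3.58.1 (lmFit, eBayes, two-sided, Benjamini-Hochberg over all tested probes, threshold 0.05) in R 4.3.3, and the fit was tested on simulated data. Python 3.11.15 with pandas 2.3.3, numpy 2.4.6 and matplotlib 3.10.9 made tables and figures. Symbols were updated through RefSeq (GRCm38.p6) by accession for 27235 probes, by symbol for 3581 and by synonym for 565, and the design's name was kept for 24300.

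The genes named were the Timp genes, all probes of Mmp14 and Adam11, genes called with 2-fold or more, genes dim in 1 group, genes whose probes disagreed, 10 well-known members (Mmp2, Mmp7, Mmp9, Mmp12, Mmp13, Adam9, Adam10, Adam17, Adamts1 and Adamts13) and the 8 partner genes with the largest called change. The members, lists and markers were chosen with earlier results of these data known. Other genes were named after their values were seen. Alternatives were normexp with an offset of 50, quantile normalization, spike-in scaling, no filter and a stricter filter on dim probes, the deposited ratios, the mean of a gene's tested probes, eBayes with a trend, the replicate number as a block, the methods' t-test in unpaired and paired form, the methods' criteria (2-fold, a mean above 1.0 in either group, unadjusted p under 0.05) and each array left out. 1 partner gene of the planned list is not reported here.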

Additional observations from a re-analysis of the deposited data

How the results depend on the processing

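The number of probes called in all, 8239, was 5381 with spike-in scaling, 4674 without the filter on dim probes and 5261 with the methods' unpaired t-test. It was 4954 to 7171 with 1 array left out, lowest without normal liver 2. The 9 family probes called with a change of 2-fold or more became 3 with normexp, 5 without the filter and 4 with the stricter filter. They became 5 with the methods' unpaired t-test and 4 by the methods' criteria (Adam11, Mmp14, Adamts7 and Adamts14). They numbered 5 to 10 with 1 array left out, lowest without normal liver 2. Without the filter, 3 family probes and 3 genes were called lower. With 1 array left out, 4 to 8 probes and 3 to 6 genes were called lower and 5 to 6 probes and 5 to 6 genes higher. There were 5 probes and 3 genes lower without normal liver 1, and 4 and 3 without normal liver 2. The methods' t-test paired by replicate number called 0 probes of the families and 0 in all after adjustment, against 10 and 7422 at an unadjusted p under 0.05. The replicate number as a block in limma gave 6 probes higher and 7 lower and 7021 calls in all. It ended the calls of Mmp19 (adjusted p = 0.0532) and of the brighter Adamts5 probe (0.0505). Same-numbered arrays deviated together with correlations of 0.066, 0.182 and 0.055, and differently numbered ones with -0.204 to 0.1. The study's statistics name a paired t-test for gene expression, but the labels do not say whether the numbers mark pairs. In the main fit the numbers were not taken as pairs, and whether they are pairs is not settled by these correlations. Adamts4 was called without the filter (log2 difference 1.67, adjusted p = 0.0343). Adam10 was called with normexp (0.43), quantile normalization (0.44) and a trend (adjusted p = 0.0423), a probe of Adam17 with normexp (-0.31) and without normal liver 1 (-0.69), and Timp1 without tumor 3 (0.58). Each reversal of sign was in a probe that was not called. With spike-in scaling the log2 difference was 0.12 for the second Adam11 probe, 0.17 for Adam12, 0.03 for the second Adam17 probe and 0.19 for Mmp17. Mmp17 was also at 0.02 with quantile normalization, at 0.00 with the deposited ratios and both t-tests, 0.09 without normal liver 2 and 0.18 without tumor 1. With 1 array left out, Adam12 ranged from -0.27 to 0.16 (0.01 and 0.03 without normal liver 2 and tumor 3), Mmp17 from -0.16 to 0.18, the brighter Adam23 probe from -0.01 to 0.30 and Mmp23 from -0.39 to 0.01. The dimmer Adam23 probe was at -0.02 with normexp. The cause of these changes was not tested.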
